A study of Mus musculus with 6 samples.

Results

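Macrophage identity is written by a small set of transcription factors, and 8 of them are described here in RAW264.7 cells, an Abelson virus-transformed mouse macrophage line, after knockdown of Ep300. The factors are Spi1, Cebpa, Cebpb, Cebpd, Maf, Runx1, Ets2 and Fli1, taken by gene symbol. All 8 of 8 were found among the 49492 gene rows measured. Cells labelled Ep300 silenced received an siRNA against Ep300, and cells labelled WT received a control siRNA, both at 50 nM for 48 h, as the labels' protocol has it. The series' design text instead speaks of established silenced lines, and which of the pair holds cannot be settled from the counts. Stranded mRNA libraries were made from 3 samples of each group. No agent other than the transfection reagent and siRNA is named, so all 6 samples are transfected, otherwise unstimulated cells of 1 line.

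As background, Spi1 encodes PU.1, an ETS-family factor that opens chromatin at myeloid enhancers and is required for macrophages to form. The C/EBP factors are basic leucine-zipper proteins that pair with each other: C/EBPα acts in the myeloid progenitor, and C/EBPβ and C/EBPδ are used in inflammatory gene induction. Runx1 binds DNA with its partner Cbfb, Maf belongs to the basic leucine-zipper proteins of mature macrophages, and Ets2 and Fli1 are further ETS factors, Ets2 being a target of growth factor and MAP kinase signals. Ep300 encodes p300, an acetyltransferase that such factors recruit to enhancers.

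In short, Ets2 was the 1 factor of the 7 tested that passed (edgeR adjusted p under 0.05), where 6.78% of all genes tested passed. It fell to 0.825 of its control level, a call lost in 4 of the 6 fits that leave out a library. Spi1, by far the most abundant, differed by 1.02-fold and did not pass the test. Runx1 and Fli1 were lower in every Ep300 siRNA library than in every control library, at 0.854 and 0.903 of control, without passing the test. Of all genes tested, 14.4% were separated in that direction, and the gap for Fli1 was very narrow. Cebpa and Cebpb had higher means, 1.49-fold and 1.41-fold, but their Ep300 siRNA libraries disagreed strongly and neither passed. Both passed with no filter on low counts, and neither passed by DESeq2 (adjusted p = 0.293 for Cebpa and 0.485 for Cebpb) or limma-voom (0.260 and 0.431). The factors' relatives and partners were listed together with other myeloid factors, and the whole list is called relatives below. Of its genes, 33 were tested, 7 fell (21.2%) and none rose by edgeR. Of all genes tested, 4.02% fell and 2.76% rose. Other myeloid factors made up 5 of the 7. That list was chosen with earlier results of these data known, which limits the comparison with all genes. With a library left out, 4 to 7 relatives were called. Cbfb, the partner of Runx1, was among those that fell.

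The knockdown itself was visible in every library. Ep300 stood at 51.1, 59.0 and 54.9 CPM (reads of the gene per 1000000 counted reads, with library sizes scaled by TMM) in the Ep300 siRNA libraries and at 107, 115 and 118 CPM in the controls (log2 fold change −1.04 ± 0.07, SE; edgeR adjusted p = 3.62e-05). The related acetyltransferase gene Crebbp stood at 77.8 ± 4.93 against 70.4 ± 5.76 CPM (SD, n = 3; edgeR adjusted p = 0.293), with overlapping groups. Total counts ran from 29993567 to 45377510 per library. Of 8 macrophage markers, 7 were high enough to test, and their summed level was 10216 to 11149 CPM after Ep300 siRNA and 9013 to 10634 CPM in controls, most of it Lyz2. By edgeR 0 of the 7 passed after adjustment, 4 before it, where 3493 of all 15741 genes tested had an unadjusted p under 0.05. DESeq2 and limma-voom each called 2, 1 as higher and 1 as lower. The 36 markers of 9 other cell types summed to 46.7 to 54.5 CPM and 55.3 to 59.8 CPM, most of it Itgax, which macrophages also express; the ranges did not overlap. In bulk RNA, fewer cells of a type and less RNA per cell cannot be told apart. Gata1, Cd3g, Epcam, Ms4a2, Cd209a, Ngp and S100a9 had no count in any library. Of these 36, 10 were tested; 4 passed edgeR before adjustment and 0 after it, and DESeq2 and limma-voom called 0.

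The start sites of the C/EBP genes are shown because Cebpa and Cebpb moved together from library to library. Their 250 bases before the RefSeq start site lie at chr7:35119043-35119292 (Cebpa, plus strand) and chr2:167688665-167688914 (Cebpb, plus strand) of GRCm38.p6. RefSeq's promoter table held 4 of the 8 factors (Cebpa, Cebpb, Ets2 and Runx1). Capitals mark matches, on either strand, to the ETS core GGAAG, the C/EBP core TTGCG, the cAMP response element core TGACG, the RUNX core TGTGGT or the MAF core TGCTGAC. No matches overlapped in these windows.
Cebpa: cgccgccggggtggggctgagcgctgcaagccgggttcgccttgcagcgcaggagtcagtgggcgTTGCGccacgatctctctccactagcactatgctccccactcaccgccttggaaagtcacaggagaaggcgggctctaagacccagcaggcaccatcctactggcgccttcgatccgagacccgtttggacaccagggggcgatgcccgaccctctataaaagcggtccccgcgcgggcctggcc
Cebpb: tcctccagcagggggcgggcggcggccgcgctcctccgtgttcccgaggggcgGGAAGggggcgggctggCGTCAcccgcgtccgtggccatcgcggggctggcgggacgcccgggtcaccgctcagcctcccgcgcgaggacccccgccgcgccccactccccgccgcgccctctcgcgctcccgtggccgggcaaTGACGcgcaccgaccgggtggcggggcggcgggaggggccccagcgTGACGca

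The Cebpa window held 1 C/EBP core, 185 bases before the start site. The Cebpb window held 3 cAMP response element cores, at 180, 53 and 7 bases before the start site, and 1 ETS core at 197. Of 32851 RefSeq promoter windows of the same length, 14.5% held the C/EBP core, 17.8% the cAMP response element core, 64.1% the ETS core, 14.0% the RUNX core and 3.81% the MAF core. G and C made up 66.4% of the Cebpa window and 81.6% of the Cebpb window, higher than 85.2% and 99.3% of all windows. High G and C was not particular to this pair. The Ets2 window held 71.6%, and the Runx1 windows 67.6% and 45.6%. Ets2, the 1 factor called, had 1 cAMP response element core in its window, on the minus strand and 32 bases before the RefSeq start site. It is shown with its flanks at chr16:95702362-95702391 (plus strand, GRCm38.p6), inside the GENCODE M21 span of the gene, which starts at 95702075.
Ets2: tccgcgctctctcCGTCAcccctgctgtcc
These matches are letters in a window, and binding was not measured.

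Read per length, the factors covered a wide range of levels. Divided by the merged exon length, Spi1 stood at 91.0 ± 3.46 CPM per kb in controls (SD, n = 3). Ets2 followed at 18.6 ± 0.575, Fli1 at 11.5 ± 0.372 and Cebpb at 5.04 ± 0.644 CPM per kb. Each of these levels was apart from the next, in that the ranges of their control libraries did not overlap. Cebpd (3.87 ± 0.313 CPM per kb), Runx1 (3.58 ± 0.132) and Cebpa (3.54 ± 0.299) overlapped one another, and Maf came last at 0.0377 ± 0.0139. The length of Runx1 matters for its place, since its longest transcript in place of merged exons gave 7.35 CPM per kb, above Cebpb. After Ep300 siRNA the order of Spi1 (92.6 ± 4.92 CPM per kb), Ets2 (15.4 ± 0.723) and Fli1 (10.3 ± 0.672) was the same. Cebpb (7.19 ± 3.39) and Cebpa (5.32 ± 2.09) now overlapped the level above and below them in that order.

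**Figure D1:**
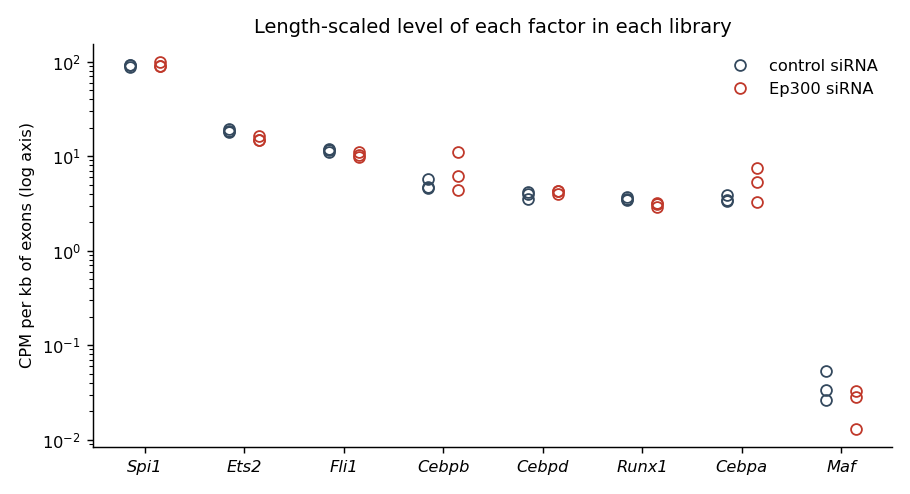
Level of each factor in each library, as CPM per kb of merged exons on a log axis; dark points are the 3 control siRNA libraries and red points the 3 Ep300 siRNA libraries. Spi1 lies near 91.0 and Maf near 0.0377 CPM per kb in controls, and the red points of Cebpb and Cebpa are the most spread of the factors above Maf.

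Spi1 (chromosome 2, 91082390 to 91115756, plus strand; coordinates of GRCm38 from GENCODE M21) held 241, 243 and 265 CPM in Ep300 siRNA replicates 1, 2 and 3. The controls held 251, 250.3 and 234 CPM. The groups overlapped, and the lowest of all 6 libraries was a control. The log2 fold change of 0.03 ± 0.06 (SE) had a 95% interval of −0.11 to 0.16 (edgeR adjusted p = 0.863). The sign turned with library sizes alone and without replicate 3 of either group, at values no lower than −0.02.

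Ets2 (chromosome 16, 95702075 to 95721051, plus strand) held 86.5, 86.2 and 93.6 CPM after Ep300 siRNA and 111, 104 and 108 CPM in controls. All 3 Ep300 siRNA libraries lay under the lowest control, with group means of 88.8 ± 4.18 and 108 ± 3.32 CPM (SD, n = 3). This gave a log2 fold change of −0.28 ± 0.06 (SE; 95% interval from −0.41 to −0.15), with an edgeR adjusted p of 0.0186. It was the only factor of the 7 tested that passed, where 6.78% of all 15741 genes passed, 2.76% as higher and 4.02% as lower. Leaving out any 1 of 4 libraries, Ep300 siRNA 1 and 2 and control 2 and 3, ended the call (edgeR adjusted p = 0.0574 to 0.0804). It held without Ep300 siRNA replicate 3 (edgeR adjusted p = 0.0309) and without control replicate 1 (0.0383), and in all 6 cases the size stayed between −0.25 and −0.32 on the log2 scale.

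Runx1 (chromosome 16, 92601466 to 92826149, minus strand) held 34.6, 38.2 and 37.4 CPM after Ep300 siRNA and 42.6, 44.8 and 41.8 CPM in controls. Here too the groups did not overlap. The difference was −0.23 ± 0.07 on the log2 scale (SE; 95% interval from −0.37 to −0.09), and the edgeR adjusted p of 0.0602 missed the threshold. With library sizes alone the adjusted p was 0.0358 by the same edgeR test. An antisense gene, Gm26626, overlaps 106 exonic bases of Runx1 and held 17 to 53 counts per library, against 1015 to 1974 for Runx1.

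Fli1 (chromosome 9, 32422204 to 32542861, minus strand) gave the narrowest separation, at 33.8, 35.9 and 38.5 CPM after Ep300 siRNA against 40.4, 41.0 and 38.5 CPM in controls. The highest Ep300 siRNA library, at 38.45 CPM, was just under the lowest control, at 38.50 CPM. The difference of −0.15 ± 0.07 on the log2 scale (SE; 95% interval from −0.30 to 0.00) did not pass (edgeR adjusted p = 0.227). The 6 genes annotated within Fli1 (Gm22060, Gm38292, Gm38346, Gm27201, Gm37474 and Gm37082) share no exonic base with it and had at most 18 counts in a library. Ets2, Runx1 and Fli1 were thus the 3 factors of 7 whose Ep300 siRNA libraries all lay below the controls. Over all genes tested the groups did not overlap for 27.5%, and for 14.4% with Ep300 siRNA below.

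**Figure D2:**
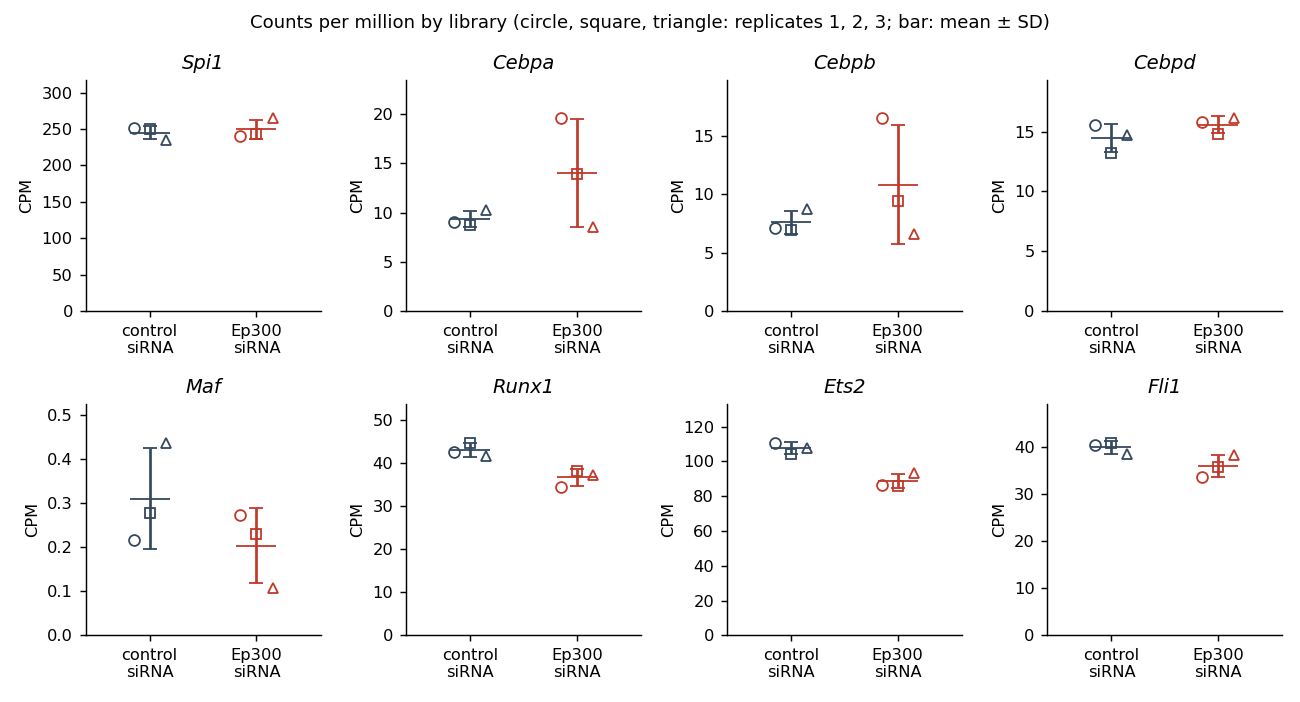
CPM of the 8 factors in each library, with circles, squares and triangles for replicates 1, 2 and 3 and bars for the group mean ± SD; each axis starts at 0. The Ets2 points after Ep300 siRNA (86.2 to 93.6 CPM) lie under all controls, while Cebpa and Cebpb are spread from control level to more than 2 times it.

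Cebpa and Cebpb had the largest log2 fold changes of the 7 factors tested and wide disagreement between their Ep300 siRNA libraries. Cebpa (chromosome 7, 35119293 to 35121928, plus strand) held 19.6, 13.9 and 8.59 CPM in Ep300 siRNA replicates 1, 2 and 3. The controls held 9.03, 8.76 and 10.2 CPM. Replicate 1 was 2.10 times the control mean, and replicate 3, at 0.919 of it, was the lowest of all 6 libraries. The log2 fold change of 0.58 ± 0.22 (SE, 95% interval 0.09 to 1.06) did not pass (edgeR adjusted p = 0.147). Leaving out Ep300 siRNA replicate 1 gave 0.28, and leaving out replicate 3 gave 0.84, where it passed (edgeR adjusted p = 0.0121). With no filter on low counts it also passed (edgeR adjusted p = 2.56e-05), and over the 15 alternatives the adjusted p ran from there to 0.437. Gm45091, antisense to Cebpa over 51 exonic bases, held 12 to 36 counts per library.

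Cebpb (chromosome 2, 167688915 to 167690418, plus strand) followed the same order, at 16.5, 9.37 and 6.59 CPM after Ep300 siRNA and 7.08, 6.97 and 8.70 CPM in controls. Replicate 1 was at 2.17 times the control mean, and replicate 3 was the lowest of all 6 libraries. The log2 fold change of 0.50 ± 0.26 (SE, 95% interval −0.06 to 1.06) did not pass (edgeR adjusted p = 0.281), and leaving out Ep300 siRNA replicate 1 gave 0.08. With no filter on low counts the edgeR adjusted p was 0.00193, within a range over the alternatives that reached 0.852. Tmem189 lies antisense to Cebpb and shares 312 exonic bases with it. No source used here says whether counting used strand, and reads of that stretch cannot be assigned to 1 gene. Tmem189 was at 118, 98.8 and 93.8 CPM after Ep300 siRNA and 108, 108 and 104 CPM in controls, also with replicate 1 highest.

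Cebpd (chromosome 16, 15887286 to 15891031, plus strand) did not share that pattern. It held 15.8, 14.8 and 16.1 CPM after Ep300 siRNA and 15.5, 13.2 and 14.7 CPM in controls. The groups overlapped, with a log2 fold change of 0.10 ± 0.09 (SE, 95% interval −0.09 to 0.30; edgeR adjusted p = 0.549). Spidr, antisense to Cebpd over 562 exonic bases, was at 48.4 to 50.3 CPM after Ep300 siRNA and 53.3 to 57.0 CPM in controls.

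The shares of Cebpa, Cebpb and Cebpd in their own sum varied among the Ep300 siRNA libraries more than between groups. C/EBP relatives such as Cebpg and Ddit3, which had more counts than any of these genes, were not part of that sum. Per length, Cebpb made up 48.5%, 40.3% and 36.7% of the summed Cebpa, Cebpb and Cebpd level in Ep300 siRNA replicates 1, 2 and 3, against 38.4%, 40.4% and 42.5% in controls. Cebpd made up 18.7%, 25.6% and 36.0% against 33.8%, 30.7% and 28.9%, and Cebpa 32.9%, 34.1% and 27.3% against 27.9%, 28.9% and 28.6%. The differences in mean share, Ep300 siRNA minus control, were 2.96 percentage points for Cebpa, 1.40 for Cebpb and −4.37 for Cebpd. None passed an exact two-sided permutation test (p = 0.4, 0.9 and 0.5; adjusted over the 3 shares 0.75, 0.9 and 0.75), in a design whose smallest possible p is 0.1. Without Ep300 siRNA replicate 1 the Cebpb difference turned to −1.92 percentage points.

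Cebpa and Cebpb share transcript features that the third does not. All 3 genes have a single merged exon, and G and C make up 62.6% of the longest Cebpa transcript, 67.2% of Cebpb and 51.6% of Cebpd. The other 45 single-exon protein-coding genes tested with over 60% G and C were therefore read in the same libraries, a set chosen after the values of Cebpa and Cebpb were seen. Their median log2 CPM relative to the control mean was 0.15, 0.08 and −0.11 in Ep300 siRNA replicates 1, 2 and 3. It was 0.00, −0.06 and 0.11 in the controls. On the same scale Cebpa was at 1.07, 0.57 and −0.12, with controls at −0.05, −0.09 and 0.13, and Cebpb at 1.12, 0.31 and −0.19, with controls at −0.09, −0.11 and 0.20. The set thus had the same order of libraries within each group at a smaller size. Of these 45 genes, 14 (31.1%) were highest in replicate 1 and lowest in replicate 3 of Ep300 siRNA, as were 17.8% of the 11840 protein-coding genes tested. The 302 single-exon genes with less G and C had medians of −0.01, −0.04 and −0.02 in those replicates. The 427 genes of several exons with over 60% G and C had medians of 0.04, 0.01 and 0.02, and 22.2% of them took that order. Gm42418, a gene that overlaps ribosomal RNA, stood at 5823, 2174 and 1363 CPM in Ep300 siRNA replicates 1, 2 and 3 and at 1327 to 1529 CPM in controls. The part of library composition in the Cebpa and Cebpb values was not tested.

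**Figure D3:**
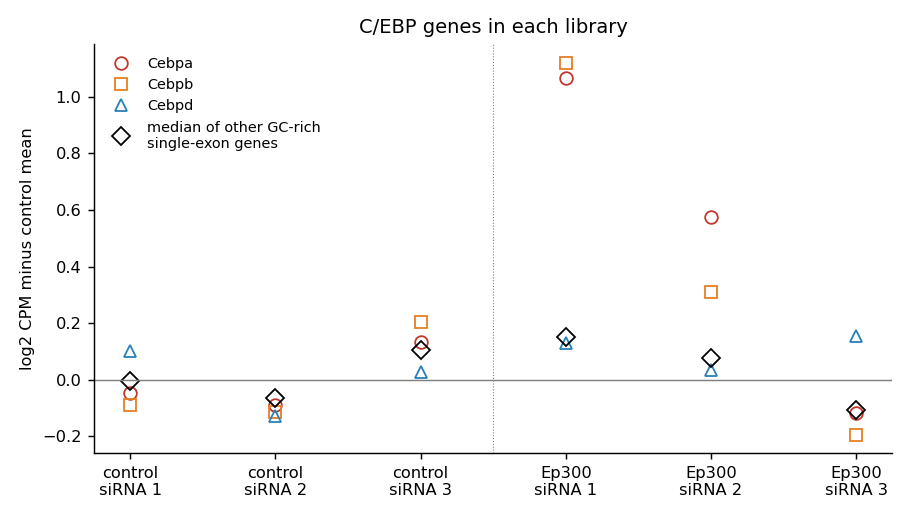
Log2 CPM minus the mean of the controls, for Cebpa, Cebpb, Cebpd and the median of 45 other GC-rich single-exon genes, in each of the 6 libraries. Cebpa and Cebpb stand at 1.07 and 1.12 in Ep300 siRNA replicate 1 and at −0.12 and −0.19 in replicate 3, and the diamonds take the same order between 0.15 and −0.11.

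Maf (chromosome 8, 115682942 to 115707794, minus strand) was close to the limit of detection. It had 8, 8 and 4 counts after Ep300 siRNA and 10, 10 and 16 in controls, or 0.108 to 0.273 and 0.216 to 0.438 CPM. It was the 1 factor removed by the filter on low counts. Tested without that filter its log2 fold change was −0.62 (edgeR adjusted p = 0.655), so a difference was not detectable at this depth. Its antisense neighbour Gm15655 had 0 to 6 counts.

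Several genes in the list of relatives, partners and other myeloid factors were lower after Ep300 siRNA, most of them other myeloid factors. The list was chosen with earlier results of these data known. Of 42 listed, 33 were tested, 7 fell and none rose by edgeR (21.2% called, against 6.78% of all genes tested, 4.02% as lower; 2 had a positive fold change at an unadjusted p under 0.05, and DESeq2 and limma-voom also called none as higher). Their median log2 fold change was −0.13, against 0.00 for all genes tested. It was −0.06 without control siRNA replicate 2, −0.08 without Ep300 siRNA replicate 1 and −0.20 without Ep300 siRNA replicate 3. Bhlhe41, a basic helix-loop-helix repressor, had the smallest p, at 72.2, 75.3 and 73.3 CPM after Ep300 siRNA and 101.0, 102 and 101 CPM in controls. It fell to 0.726 of control (log2 fold change −0.46 ± 0.05, SE; edgeR adjusted p = 0.000878). Its paralog Bhlhe40 fell to 0.748 (37.9 ± 3.07 against 50.6 ± 1.95 CPM, SD, n = 3), and Klf6, a zinc-finger factor of macrophage activation, to 0.715 (70.3 ± 7.11 against 98.4 ± 5.28 CPM).

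The other 4 that fell include the partner of Runx1. Cbfb, the non-DNA-binding subunit that stabilises Runx1 on DNA, held 76.5, 76.3 and 68.3 CPM after Ep300 siRNA and 90.0, 107 and 107 CPM in controls. It fell to 0.727 of control (log2 fold change −0.46 ± 0.08, SE; edgeR adjusted p = 0.00594). Etv3, an ETS repressor, fell to 0.812, Mitf, a factor of lysosomal and osteoclast genes, to 0.819, and Bach1, a heme-regulated repressor, to 0.818. Bach1, Mitf and Etv3 lost their call in 5, 4 and 2 of the 6 fits that leave out a library. The other 4 called relatives kept theirs in all 6. The count of relatives called was 4 without Ep300 siRNA replicate 1, and also 4 without control siRNA replicate 2.

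By family, 5 of the 16 other myeloid factors tested fell and 1 of 7 ETS relatives, where 4.02% of all genes tested fell. Among 3 RUNX partners and paralogs 1 fell, the partner Cbfb. The families were not tested against each other. Elf2, an ETS factor, had the smallest p of the relatives with a higher mean, at 63.0 ± 2.60 against 55.0 ± 1.39 CPM (SD, n = 3; edgeR adjusted p = 0.0745). None of the 4 C/EBP relatives tested (Cebpe, Cebpg, Cebpz and Ddit3) passed by edgeR, with 0 before adjustment too, and DESeq2 and limma-voom called 0. The small MAF proteins Maff, Mafk and Mafg, which lack a transactivation domain, had log2 fold changes of 0.21 ± 0.08, 0.11 ± 0.06 and −0.02 ± 0.08 (SE). Irf8, a partner of PU.1, stood at 67.0 ± 2.10 CPM after Ep300 siRNA and 65.6 ± 3.94 CPM in controls (SD, n = 3; edgeR adjusted p = 0.833). The 9 relatives too low to test were Spib, Spic, Ets1, Erg, Cbfa2t3, Gfi1b, Myb, Id3 and Gata2, with at most 12 counts in any library.

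**Figure D4:**
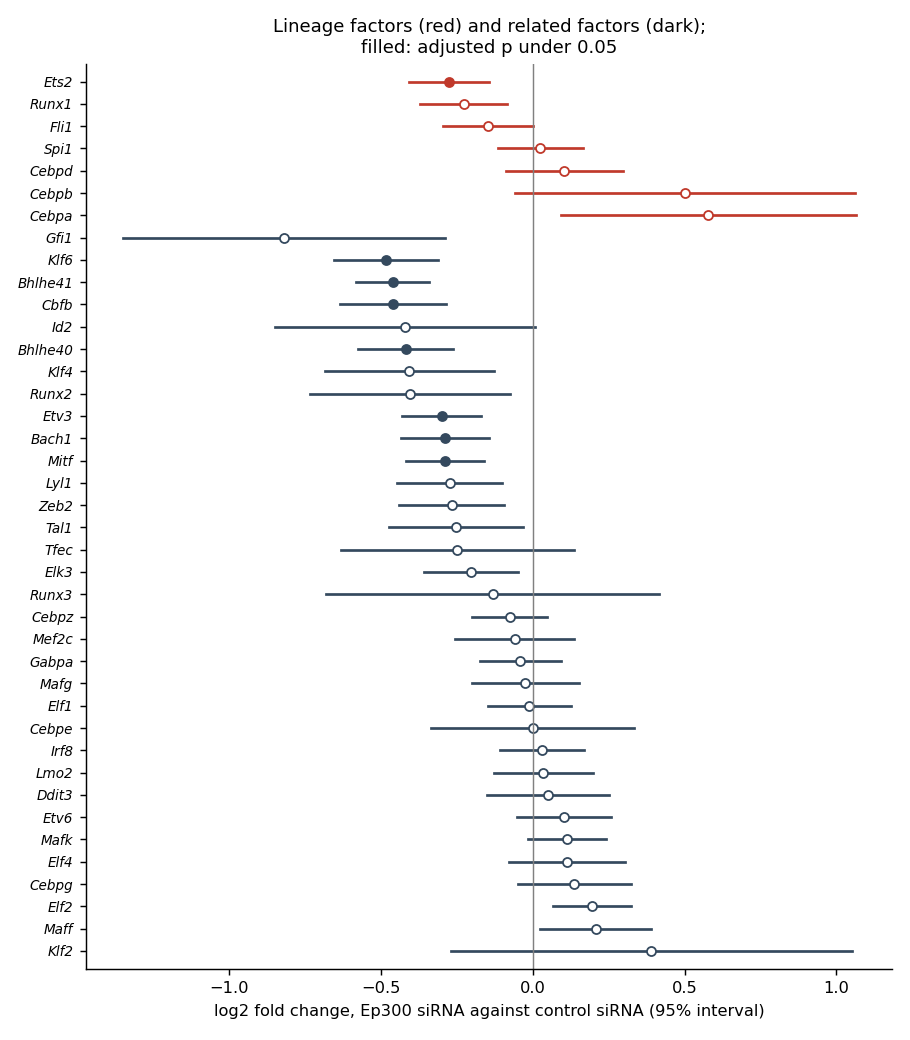
Log2 fold change of Ep300 siRNA against control siRNA with its 95% interval, for the 7 lineage factors tested (red) and 33 related factors (dark); filled points have an edgeR adjusted p under 0.05. The 8 filled points are all below 0, and the intervals of Cebpa and Cebpb reach 1.06.

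Genes that these factors are known to drive in macrophages changed in both directions. Of 36, 30 were tested, 2 rose and 2 fell by edgeR (13.3% called, against 6.78% of all genes tested). DESeq2 called 5 as higher and 3 as lower, and limma-voom 3 and 3. Without control siRNA replicate 1, edgeR called 4 as higher and 3 as lower. The median log2 fold change was 0.05, which turned to −0.01 without that replicate and reached 0.11 without control siRNA replicate 2. Csf3r, the receptor for granulocyte colony-stimulating factor and a classical target of C/EBP factors and PU.1, rose 1.78-fold. It held 5.36, 6.0 and 6.24 CPM after Ep300 siRNA and 3.43, 2.96 and 3.48 CPM in controls (log2 fold change 0.83 ± 0.13, SE; edgeR adjusted p = 0.00433). Its lowest Ep300 siRNA library was replicate 1, the library where Cebpa was highest. A link between the Csf3r and Cebpa levels was not tested. Fcgr3, an activating IgG receptor, rose 1.34-fold (136 ± 9.10 against 102 ± 6.08 CPM, SD, n = 3).

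The falls were those of a cytokine receptor chain and a pattern receptor. Csf2rb, the shared beta chain of the GM-CSF receptor, was at 53.7 ± 2.84 against 70.9 ± 4.19 CPM and fell to 0.758 of control (edgeR adjusted p = 0.0053). Tlr4, the lipopolysaccharide receptor, fell to 0.803 (46.2 ± 1.81 against 57.5 ± 2.55 CPM; edgeR adjusted p = 0.0118), a call lost without control replicate 2. Csf1r, a textbook target of PU.1 and Runx1, held 639, 629 and 710.3 CPM against 747, 792 and 789 CPM, with no overlap. Its log2 fold change of −0.24 ± 0.07 (SE) did not pass edgeR's adjusted p (0.0666), though it did by DESeq2 and limma-voom. Cd14 ran the other way, at 220, 225 and 245 CPM against 185, 208 and 188 CPM, also with no overlap. The Cd14 log2 fold change of 0.25 ± 0.07 (SE; edgeR adjusted p = 0.0535) likewise passed by DESeq2 and limma-voom. Of the 30 targets tested, 20 had a positive and 10 a negative log2 fold change. The groups did not overlap for 43.3% of the 30 targets, as for 27.5% of all genes tested. Cybb, a subunit of the phagocyte oxidase, varied among its libraries: its log2 fold change of 0.10 ± 0.16 (SE) had a 95% interval of −0.25 to 0.45, and its control libraries ran from 746 to 1226 CPM.

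**Figure D5:**
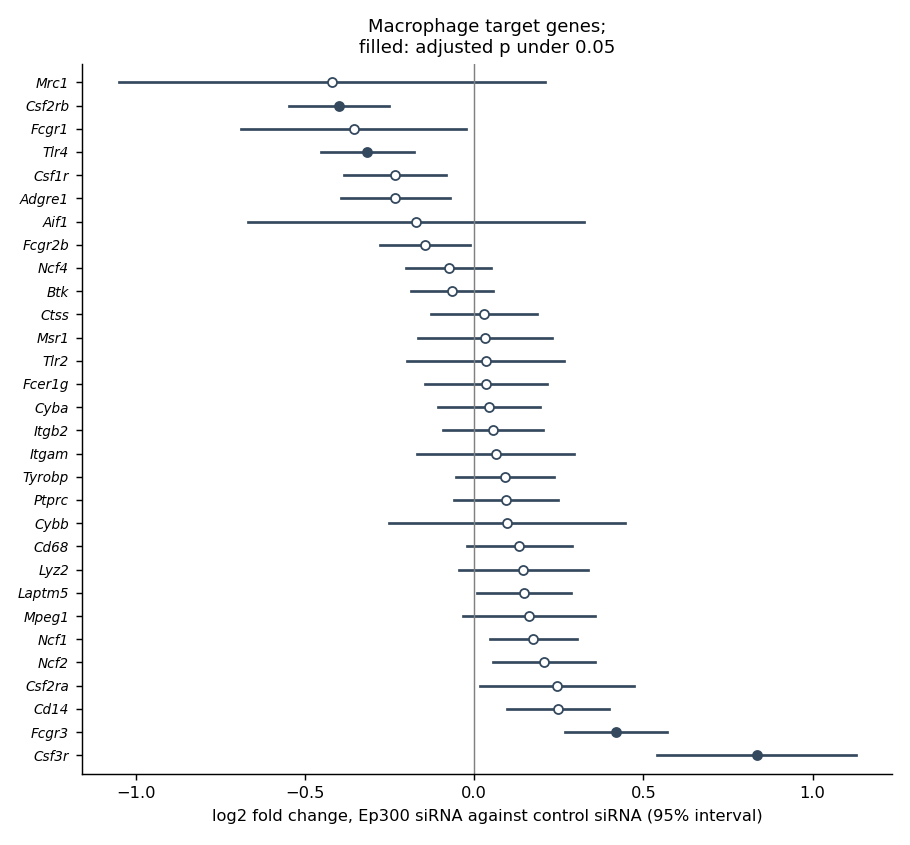
Log2 fold change of Ep300 siRNA against control siRNA with its 95% interval for 30 macrophage target genes; filled points have an edgeR adjusted p under 0.05. Csf3r (0.83) and Fcgr3 (0.42) are the filled points above 0, and Csf2rb (−0.40) and Tlr4 (−0.32) those below.

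Genes that ran most like Ets2 over the 6 libraries were Ssbp1, a mitochondrial DNA-binding protein, Irf5, an interferon regulatory factor, and Ankrd49. Their Pearson r with Ets2 on log2 CPM was 0.995, 0.995 and 0.992, the highest of 9187 named genes with a mean of at least 5 CPM. An r over 0.9 was reached by 517 of these genes (5.63%), and the difference between the groups enters every r. Irf5 held 67.3, 66.5 and 72.9 CPM after Ep300 siRNA and 83.8, 79.3 and 83.8 CPM in controls (log2 fold change −0.26 ± 0.06, SE; edgeR adjusted p = 0.0289), with replicate 3 the highest of its group, as for Ets2.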

How the data were processed

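The authors deposited raw read counts per gene symbol, 1 column per library, and columns were matched to samples by their titles. GRCm38 was the genome, with the tools STAR 2.5.3a, fastp 0.23.4, edgeR 3.12.1 and featureCounts, per the submitters' processing notes. The strand setting, multimapping rule and annotation: not given in the sources used here. Even values made up 79.8% to 80.9% of counts from 1 to 4, so a count may not stand for a separate read. The reason was not tested. With halved counts Ets2 was still the 1 factor called (edgeR adjusted p = 0.0167).

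Genes were tested across all genes with edgeR 4.0.16 in R 4.3.3 (filterByExpr, TMM scaling, quasi-likelihood F-test, two-sided), with Benjamini-Hochberg adjustment over 15741 genes and a threshold of 0.05. The step was tested on simulated data. SE came from the fold change and F, and CPM from TMM-scaled sizes. Log2 CPM used a prior count of 2. GENCODE M21 (GRCm38) gave coordinates, lengths and G and C content, and RefSeq (GRCm38.p6) the promoters. Python 3.11.15, scipy 1.17.1 and matplotlib 3.10.9 were also used. Replicates of a group differed by more than sampling noise (chi-square of 9.24 to 32.2 per degree of freedom, counts taken as separate reads). Nothing in the labels ties them to separate cultures, so the spread behind each p may be technical.

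The factors and lists were chosen with earlier results of these data known. Genes named were the 8 factors, Ep300 and Crebbp, genes overlapping a factor, the 3 smallest p among those called in each direction of each list (the 1 smallest where none was called), and the 3 genes most like the factor with the smallest p. Cbfb, Etv3, Mitf, Bach1, Maff, Mafk, Mafg, Irf8, Cebpg, Ddit3, Csf1r, Cd14, Cybb and Gm42418 were added after their values were seen. A gene of the list of related factors is not reported here and is left out of its counts. Alternatives were other scalings (RLE, upper quartile, library sizes alone), other low-count filters (none, or 1 CPM in 3 libraries), a replicate block, limma-voom (limma 3.58.1), DESeq2 1.42.0, leaving out each library, longest transcripts and, added after the data were seen, halved counts.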

Additional observations from a re-analysis of the deposited data

How the results depend on the processing

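Ep300 passed in all 15 alternatives, and Ets2 in 11 of 15. The 1 factor called became 2 with library sizes alone (Runx1 added) and 3 with no filter on low counts (Cebpa and Cebpb added), and 0 to 2 with a library left out. Cebpa then had a log2 fold change of 0.57 and Cebpb of 0.49, and the cause of their smaller p was not tested. Genes called, 1068 in all, were 1721 with no filter, which tests 30207 genes, and 490 (without control siRNA replicate 2) to 1054 with a library left out, which leaves fewer samples. Related factors called, 7, were 11 with no filter and 4 to 7 with a library left out. Target genes called, 4, were 9 with no filter, 8 by DESeq2 and 3 to 7 with a library left out. The Spi1 log2 fold change turned to −0.0081 with library sizes alone and ran from −0.019 to 0.059 with a library left out, below 0 when replicate 3 of either group was the one. The Cebpb share difference ran from −1.92 to 3.97 percentage points with a library left out, and was −1.92 without Ep300 siRNA replicate 1. Longest transcripts moved control levels per kb of Spi1 to 121, Ets2 to 27.7, Fli1 to 12.0 and Runx1 to 7.35.

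Whether the replicate numbers pair the libraries was not settled. Same-numbered deviations from the group means correlated at 0.09, 0.02 and −0.05, and not every library correlated best with its own number. Principal component 2 of log2 CPM (20.8% of the variance) nevertheless placed replicate 1 of Ep300 siRNA and of control together, at 19.6 and 18.7. The remaining libraries lay from −21.1 to −2.27. With the replicate block, 1357 genes were called, 1 factor, 8 relatives and 6 targets, and the Ets2 log2 fold change was −0.28. Depth limits Maf, with at most 16 counts in a library.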
